A study of Homo sapiens with 6 samples.

Results

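The collagen genes were taken as every gene symbol of the deposited expression table made of COL, a number, A and a number, which names the collagen alpha chain genes and leaves out collagen-like proteins and antisense genes. This gave 44 genes of the 25545 in the table. They were sorted into 9 structural classes, of which the largest were the fibrillar collagens with 11 genes and the fibril-associated collagens with interrupted triple helices (FACIT) with 10 genes. Membership was set by the symbol and not by a threshold on any value, although the family was taken up with earlier results of these data known.

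Collagens are the main structural proteins of the extracellular matrix. Their alpha chains carry runs of the repeat Gly-X-Y, through which they wind into triple helices. Chains differ in how long those runs are, and the classes in what the helices build. Fibrillar collagens form the banded fibers of connective tissue, FACIT collagens sit on the surface of those fibers, type IV collagens form the sheet of basement membranes, type VI collagen forms beaded filaments, and the multiplexins (types XV and XVIII) carry glycosaminoglycan chains and lie at basement membranes. In breast tumors most interstitial collagen is thought to come from fibroblasts, but mesenchymal carcinoma cells in culture also make it.

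The BT-549 line, established from a triple-negative breast cancer (TNBC), was grown in RPMI1640 with serum and insulin. Cells were transfected with a control siRNA (CsiRNA, 3 libraries) or an siRNA against the long noncoding RNA NEAT1, a scaffold of nuclear paraspeckles (NEAT1siRNA, 3 libraries), and RNA was taken at 48 h. All 6 libraries come from this 1 line and from triplicate cultures. The sample titles carry the prefix tet- although the treatment label names siRNA only. The design asks which transcripts differ when NEAT1 is silenced, and the comparison below asks it of the collagen genes, class by class.

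NEAT1 itself stood at 13.4, 7.68 and 10.8 TPM (transcript abundance per length, scaled to a fixed total in each library) in the CsiRNA libraries and at 4.36, 2.96 and 2.73 TPM in the NEAT1siRNA libraries, with no overlap. Its NEAT1siRNA mean was 31.5% of the CsiRNA mean. Depth ran from 15787672 to 20342489 reads per library, recovered from the deposited tables, and 4 short noncoding RNAs (RN7SK, RN7SL1, RN7SL2 and RPPH1) held 64.4 to 68.1% of the TPM of each library, which leaves the remainder to all other genes. Against the TNBC label of the line, ESR1 was listed at 0 in all libraries, PGR was at 0.00676 TPM or less, and ERBB2 was detected between 5.76 and 6.36 TPM. Of the 3 mesenchymal markers VIM, CDH2 and ZEB1, CDH2 was called lower (log2 fold change -0.34 ± 0.09, adjusted p = 0.0186 by limma), and their summed level ran from 1066 to 1241 TPM with CsiRNA and from 949 to 1142 TPM with NEAT1siRNA. Of the 5 epithelial markers, summing to 1.24 to 1.83 TPM with CsiRNA and 1.84 to 2.47 TPM with NEAT1siRNA, KRT18 alone was tested and did not pass (0.29 ± 0.11, adjusted p = 0.0801). The part of these markers in the collagen results was not tested. PTPRC and PECAM1, which mark leukocytes and endothelial cells, summed to 0.065 TPM or less. In bulk libraries such as these, fewer cells with a transcript and less transcript per cell cannot be told apart.

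The repeat that the chains share can be read in the coding sequences. The stretches below show 10 consecutive Gly-X-Y triplets from the longest uninterrupted run of each of the 4 genes that passed the test. Each is read from the GENCODE v44 transcript on GRCh38 and starts 10 triplets into that run, with the glycine codons in capitals.
COL3A1: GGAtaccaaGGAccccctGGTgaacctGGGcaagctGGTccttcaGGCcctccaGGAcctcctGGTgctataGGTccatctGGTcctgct
COL5A1: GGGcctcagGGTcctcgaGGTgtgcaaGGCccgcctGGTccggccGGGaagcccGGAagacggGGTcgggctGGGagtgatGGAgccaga
COL12A1: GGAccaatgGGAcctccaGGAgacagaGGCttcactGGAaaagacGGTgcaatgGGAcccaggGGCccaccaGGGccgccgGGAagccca
COL15A1: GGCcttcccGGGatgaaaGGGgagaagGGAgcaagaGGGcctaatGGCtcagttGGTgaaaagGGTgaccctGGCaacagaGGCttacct

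These stretches lie at coding positions 592 to 681 of COL3A1, 1765 to 1854 of COL5A1, 8497 to 8586 of COL12A1 and 2017 to 2106 of COL15A1. The glycine frame is the same in all 4, and the chains differ in how far it goes on. The longest run held 343 triplets in COL3A1 and 338 in COL5A1, but 32 in COL12A1, whose protein is the longest of them at 3063 residues, and 30 in both COL15A1 and COL18A1. Type IV chains lay between, with 40 triplets in COL4A1, 66 in COL4A2 and 42 in COL4A5, as did the type VI chains COL6A1 and COL6A2 with 87 each. Every fibrillar chain held 216 triplets (COL24A1) or more, above every chain of the other classes. Among those other classes run length does not set them apart, since the FACIT chains COL9A1 and COL21A1, under 1 TPM here, held 113. The repeat is shared as protein, while the stretches above differ between genes in the codons between the glycines. Reads from fibrillar chains could in principle still be assigned to a related chain, which was not checked. How the authors treated reads matching several genes is not given in the sources used here.

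BT-549 cells held transcripts of a limited set of collagens. With a filter of a mean of at least 1 TPM over the 6 libraries, 13 of the 44 collagen genes were tested, of which 11 had a mean of at least 10 TPM. Another 12 lay between 0.1 and 1 TPM, 13 lay above 0 and under 0.1 TPM, and 6 (COL2A1, COL11A1, COL10A1, COL6A5, COL22A1 and COL25A1) were listed at 0 in every library. By mean level, both type I chains led, with COL1A2 at 187 TPM and COL1A1 at 154 TPM, which placed them at ranks 257 and 318 of the 25545 genes of the table. COL5A2 followed at 78.3 TPM, COL15A1 at 53.6 TPM and COL5A1 at 38.2 TPM. The cartilage collagens COL2A1, COL10A1 and COL11A1 were thus not detected at this depth, where a count of 0 in a library allows up to 3 reads, for counting error only.

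**Figure D1:**
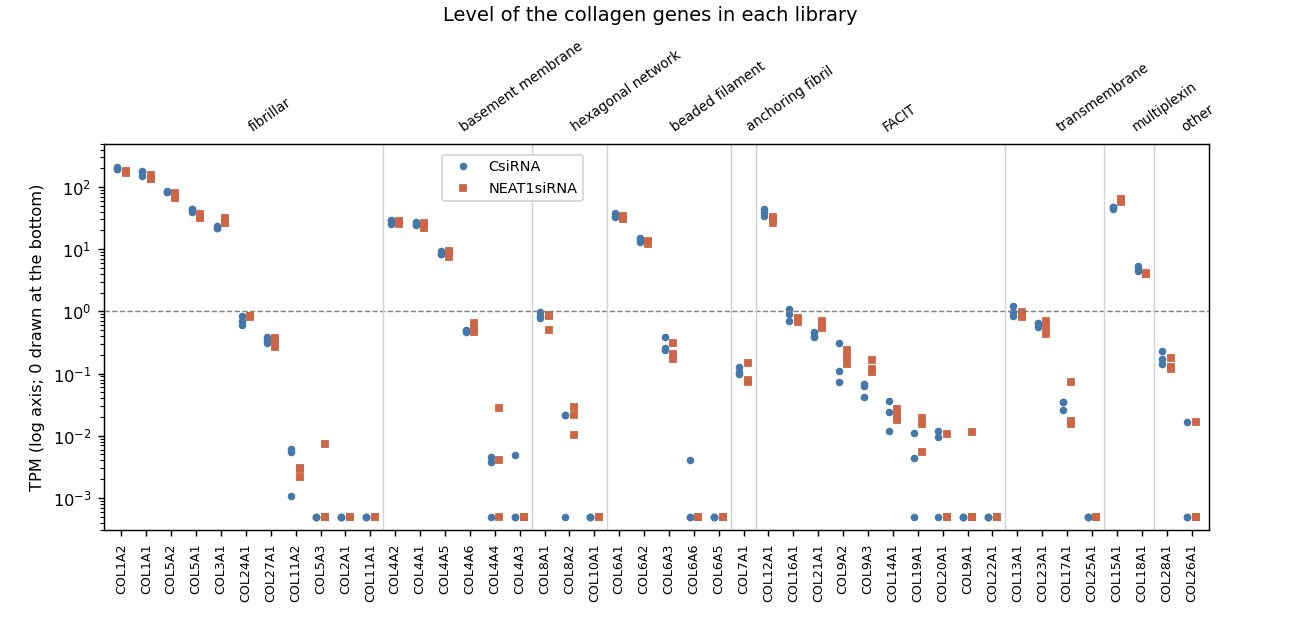
TPM of each of the 44 collagen genes (log axis, genes listed at 0 drawn at the bottom) in the 3 CsiRNA libraries (circles) and the 3 NEAT1siRNA libraries (squares), by class; the dashed line is the filter of 1 TPM. The 5 tested fibrillar genes, 3 type IV genes, COL6A1, COL6A2, COL12A1, COL15A1 and COL18A1 lie above the line in all libraries, and within each gene the groups lie close together beside the differences between genes.

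With NEAT1siRNA, 4 of the 13 tested collagens passed the test (limma on log2(TPM + 1), Benjamini-Hochberg over 10721 genes, threshold 0.05), 2 in each direction. COL3A1 and COL15A1 rose, and COL5A1 and COL12A1 fell. Each pair is 15.4% of the 13, beside 4.99% called higher and 8.98% called lower among all genes tested, and with 13 genes each share rests on 2 of them. Because 4 short RNAs hold most of the TPM, their noise can shift all other genes of a library together, and the calls were read under scalings that do not depend on them. The 535 higher and 963 lower calls over all genes became 1158 and 954 when each library was centred on its median. The same 4 collagens passed there, with adjusted p of 0.00282 for COL3A1, 0.00069 for COL15A1, 0.0385 for COL5A1 and 0.0186 for COL12A1. They also passed with TPM rescaled without the 4 RNAs (0.00692, 0.00224, 0.0425 and 0.0271), where COL5A2 was called lower too (0.0499), and under quantile normalization COL5A1 missed the threshold (0.0525) while COL1A2 (0.0413) and COL5A2 (0.0251) were called lower. By overlap of groups, 2 collagens lay above the CsiRNA range in all NEAT1siRNA libraries (11.0% of all genes tested) and 5 lay below it (19.3% of all genes tested). The median log2 fold change was -0.11 over the 13 collagens and -0.04 over all genes tested. A negative log2 fold change was found for 11 of the 13, and the share of all genes with a negative value was not counted. The count depends on the scaling. COL4A2 and COL4A5 turned slightly positive with centring on the median (0.03 and 0.05), quantile normalization and rescaling without the 4 RNAs. They also did so when the trend on GC content was removed and on recovered reads.

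The fibrillar collagens held changes of both signs. COL3A1, the sole chain of type III collagen, which mixes with type I in fibers, is encoded at chr2:188974373-189012746. It stood at 23.9, 21.7 and 22.1 TPM with CsiRNA and at 26.4, 32.0 and 26.7 TPM with NEAT1siRNA. All 3 NEAT1siRNA libraries lay above every CsiRNA library, with replicate 2 the highest. On the log2 scale the change was 0.31 ± 0.10 (SE, adjusted p = 0.0298), for a mean of 126% of the CsiRNA mean. COL3A1 was not past the threshold when any of 5 libraries was left out, with adjusted p of 0.0542, 0.115 and 0.0557 without CsiRNA replicate 1, 2 or 3, 0.0784 without NEAT1siRNA replicate 2 and 0.0501 without NEAT1siRNA replicate 3, and a log2 fold change between 0.23 and 0.35 in each.

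COL5A1 moved the other way. It encodes an alpha chain of type V collagen, which starts and limits the growth of type I fibers, and lies at chr9:134641803-134844843. Its TPM were 43.8, 39.2 and 44.3 with CsiRNA and 37.1, 33.6 and 31.5 with NEAT1siRNA. The groups did not overlap, with NEAT1siRNA replicate 1 the closest to CsiRNA. On the log2 scale the change was -0.31 ± 0.09 (adjusted p = 0.0273), for 80.3% of the CsiRNA mean. The call was lost without CsiRNA replicate 1 (adjusted p = 0.123), without CsiRNA replicate 3 (0.067) and without NEAT1siRNA replicate 3 (0.155).

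The other 3 tested fibrillar chains had negative values and did not pass. COL1A2, an alpha chain of type I collagen, was at 209, 192 and 193 TPM with CsiRNA and at 176, 183 and 167 TPM with NEAT1siRNA, with no overlap (log2 fold change -0.18 ± 0.08, adjusted p = 0.172). COL1A1, its partner chain, was at 172, 148 and 180 TPM and at 154, 135 and 134 TPM, where NEAT1siRNA replicate 1 lay above CsiRNA replicate 2 (-0.24 ± 0.09, adjusted p = 0.0845). COL5A2, the partner of COL5A1, was at 87.3, 82.8 and 81.7 TPM and at 70.9, 80.3 and 66.5 TPM, again with no overlap (-0.21 ± 0.09, adjusted p = 0.126). Leaving out CsiRNA replicate 2 or NEAT1siRNA replicate 1 brought COL1A1 past the threshold (adjusted p = 0.049 and 0.0373), and leaving out NEAT1siRNA replicate 2 did so for COL5A2 (0.0131). The median over the 5 fibrillar genes was -0.21.

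**Figure D2:**
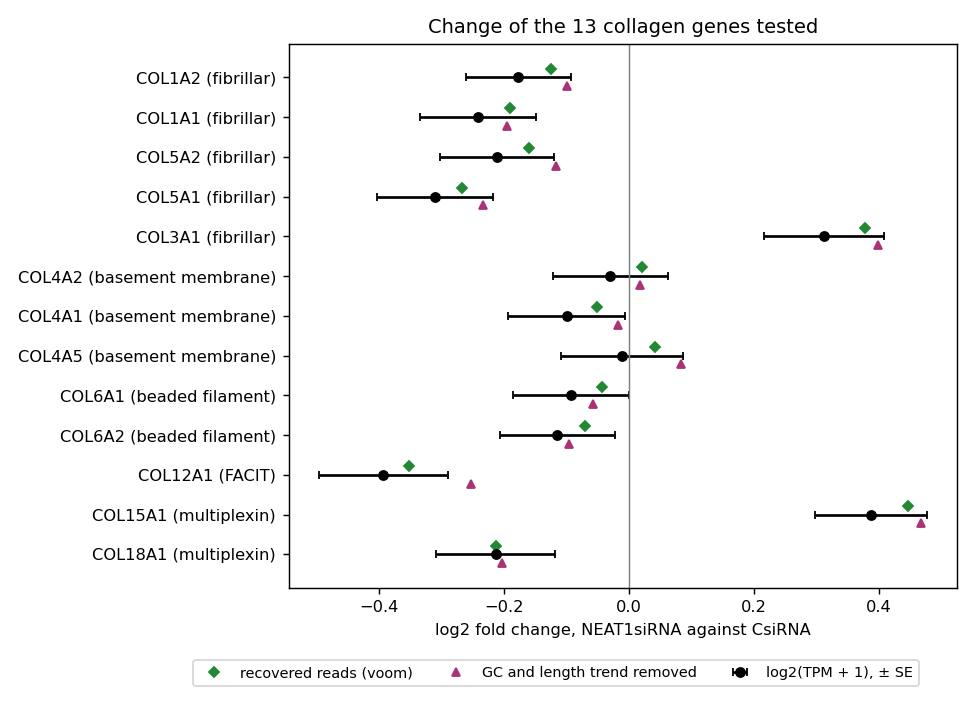
log2 fold change of the 13 tested collagens, NEAT1siRNA against CsiRNA, on log2(TPM + 1) with the standard error of the moderated test (black, n = 3 per group), on recovered reads (diamonds) and with the trend on GC content and length removed (triangles). COL3A1 and COL15A1 lie right of 0 and COL5A1 and COL12A1 left of it under all 3, while COL4A2 and COL4A5 fall on both sides of 0.

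Ratios within a library do not depend on how the library is scaled, so COL3A1 was also set against the other fibrillar chains in each library. They can still carry the trend on GC content in which the libraries differed, given further below, which was not removed here. Transcript GC content was 52.2% for COL3A1, 54.5% for COL1A2, 48.3% for COL5A2 and 61.5% for COL1A1. The pairs were chosen with the values in view, and since the smallest p that an exact permutation test gives in this design is 0.1, the ratios are given as a description. COL3A1 over COL1A2 was 0.114, 0.113 and 0.114 with CsiRNA and 0.1502, 0.175 and 0.160 with NEAT1siRNA. The control ratio was nearly constant, with an SD of 0.000757, and every NEAT1siRNA library lay above it. COL3A1 over COL5A2 was 0.269 ± 0.00602 with CsiRNA and 0.391 ± 0.0162 with NEAT1siRNA (SD, n = 3), without overlap. COL3A1 and COL5A2 are neighbours on chromosome 2, lying tail to tail with 19151 bases between them. COL3A1 over COL1A1 was 0.136 ± 0.0123 and 0.203 ± 0.0335, also without overlap.

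The ratios of chains that assemble into the same trimer overlapped between the groups. COL1A1 over COL1A2 was 0.842 ± 0.083 with CsiRNA and 0.805 ± 0.0713 with NEAT1siRNA, COL5A1 over COL5A2 was 0.506 ± 0.035 and 0.471 ± 0.0525, and COL4A1 over COL4A2 was 0.924 ± 0.0563 and 0.880 ± 0.0779. COL5A1 over COL1A1, chains of different types, was 0.255 ± 0.00923 and 0.242 ± 0.00713 and overlapped too.

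**Figure D3:**
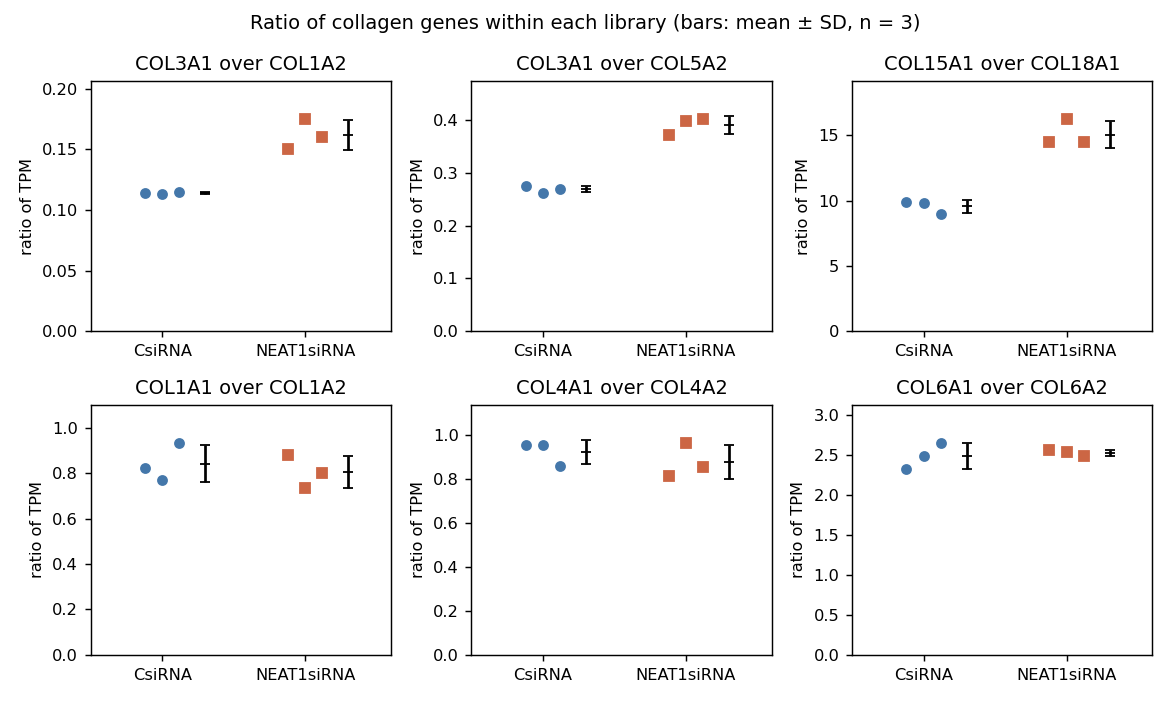
Ratio of the TPM of pairs of collagen genes within each library, CsiRNA (circles) and NEAT1siRNA (squares), with the mean ± SD of 3 libraries beside the points; axes start at 0. COL3A1 over COL1A2, COL3A1 over COL5A2 and COL15A1 over COL18A1 are higher in all 3 NEAT1siRNA libraries, and the ratios of type I, IV and VI partner chains overlap.

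COL12A1 was the one FACIT collagen above 1 TPM, and it had the largest fall among the tested collagens. Its product binds the surface of type I fibers and links them to other matrix. The gene lies at chr6:75084326-75206267 on the minus strand. It was at 44.4, 34.8 and 39.5 TPM with CsiRNA and at 33.0, 30.6 and 26.1 TPM with NEAT1siRNA. The groups did not overlap, but CsiRNA replicate 2 lay close to NEAT1siRNA replicate 1. The log2 fold change was -0.39 ± 0.10 (adjusted p = 0.0112), for 75.5% of the CsiRNA mean. Without CsiRNA replicate 1 or without NEAT1siRNA replicate 3 it did not pass (adjusted p = 0.115 and 0.111, with log2 fold changes of -0.31 and -0.30).

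The other 9 FACIT genes lay under 1 TPM. COL16A1, the highest of them at a mean of 0.813 TPM, overlapped between groups. COL21A1, a short FACIT chain, was the opposite of COL12A1 in direction, with 36, 38 and 53 recovered reads with CsiRNA and 69, 57 and 54 with NEAT1siRNA, or 0.388, 0.404 and 0.463 against 0.690, 0.540 and 0.577 TPM. Its groups did not overlap, but in voom on recovered reads the log2 fold change of 0.55 ± 0.20 did not pass (adjusted p = 0.0538). COL9A3, a chain of the cartilage FACIT type IX, had 3, 2 and 4 reads and then 6, 9 and 5, which also did not overlap but was too shallow to test. COL9A2 of the same trimer, at 0.177 TPM, overlapped.

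The multiplexins COL15A1 and COL18A1 had values of opposite sign, of which COL15A1 passed. COL15A1 encodes type XV collagen, a proteoglycan that ties basement membranes to the collagen fibers beneath, and lies at chr9:98943179-99070792. It stood at 47.8, 43.6 and 47.5 TPM with CsiRNA and at 60.9, 65.0 and 56.8 TPM with NEAT1siRNA. All 3 NEAT1siRNA libraries were above the CsiRNA range by more than the spread within either group. The log2 fold change was 0.39 ± 0.09 (adjusted p = 0.00453), for 132% of the CsiRNA mean, and COL15A1 passed in all 19 alternative settings, with a log2 fold change between 0.34 and 0.47. COL18A1, the parent of endostatin, was at 4.84, 4.45 and 5.28 TPM with CsiRNA and at 4.21, 4.001 and 3.93 TPM with NEAT1siRNA. It lay lower in all NEAT1siRNA libraries without passing (-0.21 ± 0.09, adjusted p = 0.141). COL15A1 over COL18A1 was 9.86, 9.80 and 8.995 with CsiRNA and 14.5, 16.2 and 14.5 with NEAT1siRNA, and did not overlap. Their transcripts hold 54.3% and 67.2% G or C, and the trend on GC content was not removed from this ratio.

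Type IV collagen, the network of basement membranes, did not pass in any chain. COL4A2 was at 28.2, 25.8 and 29.0 TPM with CsiRNA and at 28.9, 27.1 and 25.3 TPM with NEAT1siRNA (log2 fold change -0.03 ± 0.09, adjusted p = 0.880). COL4A1 was at 27.0, 24.7 and 24.9 TPM and at 23.5, 26.2 and 21.7 TPM (-0.10 ± 0.09, adjusted p = 0.543). COL4A5, which is used in trimers with other type IV chains, was at 9.34, 8.38 and 8.50 TPM and at 9.08, 9.40 and 7.59 TPM (-0.01 ± 0.10, adjusted p = 0.962). The groups overlapped for all 3. Over the 5 tested chains of types IV and VI, 0 were called, 0 had an unadjusted p under 0.05 in limma, and 0 were called in voom on recovered reads. With 4.99% and 8.98% of all genes called, 5 genes are too few for 0 calls to set these classes apart.

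COL4A1 and COL4A2, whose products share a trimer, are transcribed away from each other on chromosome 13 from RefSeq starts 126 bases apart (GRCh38.p14). The 100 of those bases that lie in no annotated exon, at chr13:110307158-110307257 on the plus strand, are shown because a single short stretch stands before both genes. The capitals mark a CCAAT box (CCAAT) and a GC box (GGGCGG), searched on both strands.
COL4A1 to COL4A2: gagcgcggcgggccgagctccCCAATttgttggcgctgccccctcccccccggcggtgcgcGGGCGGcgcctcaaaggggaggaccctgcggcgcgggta

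The boxes start at bases 22 and 62 of this stretch, of which 78% is G or C. In the 250 bases before the start, a CCAAT box was found in 32% and a GC box in 42.6% of 35116 RefSeq promoters, and in 3 and 7 of the 8 tested collagens with an entry, of which COL4A1 and COL4A2 share these bases. The mean levels of COL4A1 and COL4A2 were alike at 24.7 and 27.4 TPM. By the GENCODE gene models, in which COL4A1 and COL4A2 overlap by 1.35 kb, the other type IV genes also lie head to head in pairs. COL4A5 and COL4A6 are 340 bases apart on chromosome X, with mean levels of 8.71 and 0.514 TPM. COL4A3 and COL4A4 are 170 bases apart on chromosome 2 and were both near 0, with 1 and 9 recovered reads over the 6 libraries, too few to compare.

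Type VI collagen was represented by COL6A1 and COL6A2, neighbours on chromosome 21. COL6A1 was at 34.7, 32.8 and 37.7 TPM with CsiRNA and at 34.5, 33.5 and 30.5 TPM with NEAT1siRNA (-0.09 ± 0.09, adjusted p = 0.568). COL6A2 was at 14.9, 13.2 and 14.2 TPM and at 13.4, 13.2 and 12.2 TPM (-0.11 ± 0.09, adjusted p = 0.461). Both overlapped between the groups, and COL6A1 over COL6A2 was 2.49 ± 0.165 with CsiRNA and 2.53 ± 0.0376 with NEAT1siRNA. COL6A3, the remaining chain of the common type VI trimer, had a mean of 0.260 TPM, far below its partners.

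Of the 31 collagens under 1 TPM, 12 had a mean of at least 10 recovered reads and could be fitted by voom, a setting chosen after seeing the data. None of these 12 passed, where 11.4% of the 12716 genes in that fit were called higher and 10.5% lower. An unadjusted p under 0.05 was found for 2 of them, and the share of all genes at that threshold was not counted. The 12 were the fibrillar COL24A1 (0.773 TPM) and COL27A1 (0.339 TPM), COL4A6, COL8A1 of the hexagonal network class (0.802 TPM), COL6A3, COL7A1 of the anchoring fibrils of skin (0.104 TPM), the FACIT chains COL16A1, COL21A1 and COL9A2, the transmembrane collagens COL13A1 (0.947 TPM) and COL23A1 (0.592 TPM), and COL28A1 (0.161 TPM). COL24A1 had 126, 93 and 130 reads with CsiRNA and 139, 144 and 122 with NEAT1siRNA, which overlapped. Of the 31, the groups did not overlap for 2, COL21A1 and COL9A3, both higher, where 7.38% of all genes above 0 and under 1 TPM lay above the CsiRNA range in all NEAT1siRNA libraries and 5.42% below it. A count of 2 is near that background and is not a result about these genes. In the voom fit COL3A1 and COL15A1 were called higher (log2 fold changes 0.38 ± 0.06 and 0.45 ± 0.06, adjusted p = 0.000517 and 7.75e-05) and COL5A1 and COL12A1 lower (-0.27 ± 0.07 and -0.35 ± 0.08, adjusted p = 0.0171 and 0.00463).

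Summed over the family, collagen transcripts amounted to 754, 677 and 734 TPM with CsiRNA and to 678, 679 and 615 TPM with NEAT1siRNA, which overlapped. The fibrillar share was 71.3, 71.6 and 71.1% with CsiRNA and 68.6, 68.5 and 69.3% with NEAT1siRNA, lower in all 3. The multiplexin share was 6.98, 7.10 and 7.18% and then 9.60, 10.2 and 9.88%, higher in all 3 and almost wholly COL15A1. The basement membrane share was 8.65 ± 0.101% and 9.15 ± 0.175% (SD, n = 3), also without overlap, while the summed type IV level itself overlapped at 62.4 ± 2.81 and 60.2 ± 4.37 TPM. The FACIT share, mostly COL12A1, was 5.69 ± 0.384% and 4.798 ± 0.312%, without overlap, and the beaded filament share overlapped at 6.85 ± 0.24% and 6.997 ± 0.109%. No test was run on these shares, which are given as a description.

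**Figure D4:**
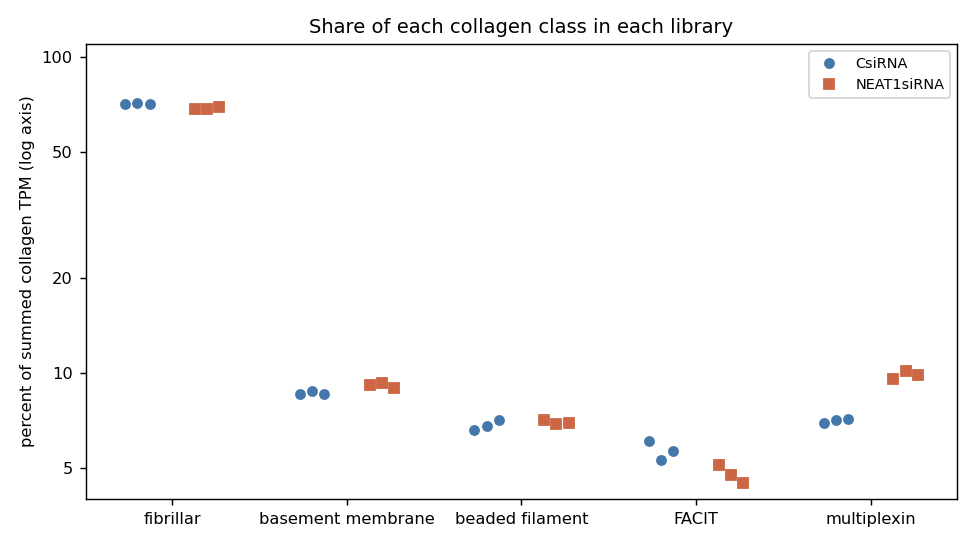
Share of each collagen class in the summed collagen TPM of each library (percent, log axis), CsiRNA (circles) and NEAT1siRNA (squares), for the 5 classes with a tested gene. The multiplexin share is 6.98 to 7.18% with CsiRNA and 9.60 to 10.2% with NEAT1siRNA, the fibrillar and FACIT shares lie lower in all 3 NEAT1siRNA libraries, and the beaded filament shares overlap.

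Genes that modify, export, trim, crosslink, bind or regulate collagen were read from a list of 56 genes in the table, of which 41 were tested. With NEAT1siRNA 6 of the 41 fell and 0 rose, beside 8.98% and 4.99% of all genes tested, and the median log2 fold change was -0.07. At an unadjusted p under 0.05, 2 had a positive value (LOXL1 and BGN). Besides the 6 called, P4HA3, P3H3 and ITGA10 had a negative value at that threshold. The share of all genes there was not counted. Voom on recovered reads of the same genes called 2 partners higher and 7 lower, beside 1247 and 1258 of 10721 genes. The voom fit of genes with a mean of at least 10 reads, chosen after seeing the data, called 3 higher (LOXL1, BGN and DDR1) and 7 lower. In that fit 11.4% of all genes were called higher and 10.5% lower. Over all genes, the 535 higher calls became 1082, 1158 and 940 under quantile normalization, median centring and rescaling without the short RNAs. Among the partners, the count of 0 became 2 under each of these. With the trend on GC content and length removed it became 9, beside 10 called lower, in a fit that called 16.3% of all genes higher and 16.9% lower. Without CsiRNA replicate 1, and without NEAT1siRNA replicate 3, 3 partners were called lower in place of 6. Over all genes, 383 and 425 were called lower there in place of 963.

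Of the 15 tested genes that modify or fold the chains, 1 fell. COLGALT1, which adds galactose to hydroxylysine, was at 113, 104 and 95.8 TPM with CsiRNA and at 85.9, 87.3 and 80.7 TPM with NEAT1siRNA, without overlap (-0.30 ± 0.09, adjusted p = 0.0273). The prolyl hydroxylases P4HA1 and P4HA2, the lysyl hydroxylase PLOD2 and the collagen chaperone SERPINH1 did not pass, with log2 fold changes of 0.01, 0.07, -0.15 and 0.08. P4HA3 (-0.25 ± 0.09, adjusted p = 0.0801) and P3H3 (-0.24 ± 0.09, adjusted p = 0.0927) did not pass either. Both lay below the CsiRNA range in all NEAT1siRNA libraries, as did P3H1, P4HB, PLOD1 and FKBP10, where 19.3% of all genes tested did so. The median over the 15 was -0.11. None of the 4 export genes, the 4 procollagen proteinase genes or the 3 crosslinking genes passed, the last being LOX and LOXL2 with -0.13 and -0.15 and LOXL1 with 0.20 ± 0.09 (adjusted p = 0.147). All NEAT1siRNA libraries lay above the CsiRNA range for LOXL1 and below it for LOXL2.

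Among collagen receptors 1 of 4 fell, ITGB1, the beta chain of the collagen-binding integrins. It was at 413, 393 and 371 TPM with CsiRNA and at 306, 366 and 299 TPM with NEAT1siRNA, where NEAT1siRNA replicate 2 came close to the CsiRNA range (-0.28 ± 0.09, adjusted p = 0.0351). Of the alpha chains listed with it, ITGA1, ITGA2 and ITGA11 were near 0, with means of 0.0190, 0.0123 and 0.0292 TPM. ITGA10, at a mean of 1.26 TPM, lay lower in all NEAT1siRNA libraries without passing (-0.29 ± 0.10, adjusted p = 0.0553). In the voom fit chosen after seeing the data ITGA10 was called lower (-0.49 ± 0.14, adjusted p = 0.0222). Among collagen-binding matrix genes 2 of 4 fell. FN1, fibronectin, on which collagen fibers are laid down, was at 93.8, 78.1 and 83.7 TPM and at 66.4, 60.6 and 56.3 TPM (-0.47 ± 0.09, adjusted p = 0.00116). THBS1, an activator of latent TGF-beta, was at 403, 353 and 339 TPM and at 244, 251 and 228 TPM (-0.59 ± 0.09, adjusted p = 4.03e-05). SPARC, a collagen-binding glycoprotein, did not pass at 0.08 ± 0.08. BGN, at a mean of 1.32 TPM, lay higher in all NEAT1siRNA libraries without passing (0.28 ± 0.10, adjusted p = 0.0536). The voom fit chosen after seeing the data called BGN higher (0.54 ± 0.17, adjusted p = 0.0285).

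Of the 7 tested regulators 2 fell. CTGF, a matricellular inducer of collagen genes, was at 192, 172 and 161 TPM with CsiRNA and at 87.2, 93.8 and 79.9 TPM with NEAT1siRNA, the largest change on the list (-0.999 ± 0.092, adjusted p = 3.46e-08). TGFB2, a ligand that drives collagen transcription, was at 6.85, 6.04 and 6.04 TPM and at 4.28, 5.45 and 4.202 TPM (-0.38 ± 0.10, adjusted p = 0.0130). TGFB1 and SMAD3, the ligand and the signal transducer of the same pathway, had 0.09 ± 0.10 and 0.06 ± 0.10 and did not pass.

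By their medians the tested collagen transcripts were long and rich in G and C, and the libraries differed in a trend on GC content. The 13 tested collagens had a median transcript GC content of 55.2%, ranging from 46.3% in COL12A1 to 67.2% in COL18A1. Their median length was 5914 bases. Over 10423 tested genes the medians were 47.3% and 3346 bases. Spearman's rho between GC content and a library's deviation from its group mean, across those genes, was 0.68 in NEAT1siRNA replicate 1 and -0.73 in NEAT1siRNA replicate 2, and lay between -0.34 and 0.47 in the other libraries. With that trend removed, COL3A1 (0.40), COL15A1 (0.47), COL5A1 (-0.23) and COL12A1 (-0.25) were still called, and COL1A1 (-0.19, adjusted p = 0.0132) and COL18A1 (-0.20, adjusted p = 0.0163) were called lower as well. That fit called 16.3% of all genes higher and 16.9% lower, beside 2 of the 13 collagens higher and 4 lower, and nothing more is read from these counts. The median over the fibrillar collagens went from -0.21 to -0.12. The antisense genes of COL1A2 and COL4A2 reached at most 0.634 and 1.63 TPM. Over the 6 libraries COL1A2-AS1 held 16 recovered reads, and COL4A2-AS1 and COL4A2-AS2 held 17 and 4. COL1A2 held 133378 and COL4A2 held 23652. Antisense reads cannot be told apart from those of the collagens unless strand was used in counting, which is not given in the sources used here.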

How the data were processed

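BT-549 cells were sequenced as 3 CsiRNA and 3 NEAT1siRNA libraries. The authors made stranded mRNA libraries, aligned reads with STAR to GRCh38 and compared groups with DESeq2, and the annotation and the counter are not given in the sources used here. The deposited table holds TPM for 25545 genes, scaled by the authors for transcript length and to 1000000 per library. A second table of the authors' own comparison gives a mean normalized count per gene, a signal averaged over the 6 libraries, which was used, and a log2 fold change, standard error, test score and p-values, which were not. Joining both tables gave whole reads (99.9% of values within 0.05 of a whole number where the mean normalized count was under 5, approximate for high genes), and from these the depth of each library, which TPM alone does not keep.

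Genes averaging 1 TPM or more were tested as log2(TPM + 1) with lmFit and eBayes (trend) of limma 3.58.1 in R 4.3.3, adjusted by Benjamini-Hochberg over 10721 genes, with a threshold of 0.05. Fold changes on this scale understate those of low genes. Errors after ± beside a log2 fold change are standard errors of this fit, and p-values measure the spread between triplicate cultures of 1 line. The procedure was tested on simulated data drawn with a range of seeds. It recovered large changes, but in a few draws noise in the 4 short RNAs shifted the TPM of all other genes in a group and most calls were then false. Centring each library on its median kept such calls to a minority, so the collagen calls are also given under that scaling and without the 4 RNAs. Python 3.11.15 with numpy 2.4.6, pandas 2.3.3 and matplotlib 3.10.9 did the rest. Symbols were matched to GENCODE v44 on GRCh38 (all 44 collagens), and promoters came from RefSeq on GRCh38.p14.

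The collagens, their classes, the partner list and the settings were chosen with earlier results of these data known. Named were all collagens with a mean of at least 0.1 TPM, with values by library where the mean was at least 10 TPM or the threshold was passed, others as counts (COL4A5, COL18A1, COL21A1 and COL9A3 were given by library after their values were seen), and the partners past the threshold, with a few others by role. Settings varied were the pseudocount (0.1), the filter (none, or 5 TPM), quantile normalization, centring on the median, rescaling without the 4 short RNAs, eBayes with no trend, a block for the replicate number, subtraction of a GC and length trend (splines, 4 degrees of freedom) with and without that block, voom on recovered reads, a threshold of 0.01, and each library left out in turn. Voom on genes with a mean of at least 10 recovered reads was added after seeing the data.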

Additional observations from a re-analysis of the deposited data

How the results depend on the processing

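No collagen changed direction past the threshold in any of the 19 settings. COL15A1 kept its call in all 19, COL12A1 in 15, COL5A1 in 13 and COL3A1 in 12. Against 2 collagens called higher and 2 lower, the counts were 1 and 0 with no filter on TPM and 1 and 0 at an adjusted p under 0.01. Over all genes, no filter called 242 higher and 263 lower of 18531. The stricter threshold called 276 and 443 of 10721, beside 535 and 963 in the main fit. They were 2 and 4 with the GC and length trend removed, with or without the replicate block, where the fit without the block called 16.3% of all genes higher and 16.9% lower. Each library left out in turn gave 1 to 2 higher and 0 to 3 lower, with 0 lower without CsiRNA replicate 1 or NEAT1siRNA replicate 3 and 1 lower without CsiRNA replicate 3. Over all genes, 383 were called lower without CsiRNA replicate 1, 425 without NEAT1siRNA replicate 3, and 999 without CsiRNA replicate 3. The highest such count was 1590, without NEAT1siRNA replicate 2, and higher calls ran from 376 to 540. Against 0 partner genes called higher, 2 were called with quantile normalization, centring on the median, rescaling without 4 short RNAs, and voom on recovered reads, 1 with eBayes without trend, 9 with the GC and length trend removed, 10 with the replicate block added to that, 3 with voom at a mean of at least 10 reads, and 0 to 0 with each library left out. Up to that voom fit, in the order listed, higher calls over all genes were 1082, 1158, 940, 1247, 529, 1703, 1682 and 1448. Against 6 called lower, 2 were called with no filter, 3 at an adjusted p under 0.01, 10 with the trend removed with or without the replicate block, and 3 to 8 with each library left out. Lower calls over all genes with the trend removed were 1764 without the block and 1709 with it. No filter adds genes near 0 to the test, and the cause of the changes was not tested for any setting. No pairing by the shared replicate numbers was evident, since deviations of same-numbered libraries correlated at -0.03, 0.25 and -0.11, and not every library correlated best with its own number. The highest correlation, 0.40, joined CsiRNA replicate 3 and NEAT1siRNA replicate 1, whose deviations rose with GC content (rho 0.47 and 0.68). Because the deviations carry that trend, the check cannot decide whether same-numbered cultures were handled together. The replicate block alone gave 2 collagens called higher and 2 lower. Depth limits the 13 collagens between 0 and 0.1 TPM, where a few reads decide a value.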
